A study of Zea mays with 54 samples.

Results

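The genes described here drive cell division and DNA replication in the maize shoot apical meristem (SAM), and the measurements set their transcripts in the outer cell layer of the meristem (L1) against those in the corpus beneath it (L2). Members were the probes whose single annotated gene is cdc2, pcna1 or MCM6, or has a name that begins with cyc or mcm and a digit, in the array annotation or among its RefSeq synonyms. The rule used names only, not measured values. It found 6 of the 866 genes named singly on the arrays: cdc2 (gene LOC542270), the cyclins cyc1 (LOC542307) and cyc3 (LOC542305), pcna1 (LOC542425), MCM6 (LOC542206) and MCM7 (LOC542504). They are represented by 21 of the 49280 probes of the 3 array designs, and 17 of these 21 had values, among 37662 probes with values in all. All 10 member probes on slides 1 to 6 had values, as did 5 of the 6 on slides 7 to 12, whereas slides 13 to 18 gave values for 2 of 5. The 4 without values were 2 cdc2 probes, which carry the same clone on different designs, 1 MCM6 probe and 1 MCM7 probe.

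All plants were of the inbred line B73, and vegetative SAMs came from seedlings aged 14 days. L1 and L2 cells were laser-captured from paraffin sections, with 5 to 10 SAMs pooled per replicate, and about 1 ng of RNA from each layer was amplified before labelling. Each of the 18 spotted cDNA slides, 6 per design, carried amplified RNA of both layers, with L1 in Cy3 on odd slides and in Cy5 on even slides. There was no treatment and no genotype contrast: the comparison is L1 against L2 within the same kind of meristem.

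Passage through the cell cycle is driven by cyclin-dependent kinases, which are active only when bound to a cyclin. DNA is copied once per cycle, when the MCM proteins, which form the ring-shaped helicase, unwind it and PCNA, a sliding clamp, holds the polymerases on the template. In a shoot meristem these genes mark cells that keep dividing: L1 cells divide mostly at right angles to the surface and so remain a single sheet, while corpus cells divide in more varied planes.

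The deposited values are log ratios, here averaged over the 3 readings of a slide and given as L1 minus L2, so values above 0 are higher in L1. The labels do not state the base of the logarithm, so a difference of 1 log unit is 2-fold if it is base 2 and 2.72-fold if it is natural. They do not state the dye in the numerator either. The direction is likely, not stated: it rests on the epidermis markers ocl1, at 0.90 to 1.00 on its 4 probes over all designs, and ocl4, at 2.12 and 2.65 on 2 of its 3 probes, and on the meristem gene kn1, at -1.26, -1.72 and -1.56 on the strongest probe of each design. The other kn1 probes lay between -0.72 and 0.022, so different probes of a gene can give unequal sizes. In all, 8 of 15 probes of the epidermis markers were called higher in L1 and 5 of 14 of the meristem markers lower. Not every marker went this way. The other ocl4 probe was at 0.18, ocl2 at 0.0013, cr4 at 0.14 and -0.11, and ocl3 probe 3789 at -0.15, all uncalled. The meristem marker knox3 was above 0 on both its probes (0.17 and 0.11), also uncalled. Of the leaf primordium markers, 8 of 30 probes were called, all of them higher in L1 (range of the 30 probes -0.36 to 2.12). Their part in the results was not tested. The files hold ratios without intensities, so the level of each gene, and whether a probe was above background, are not known.

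No difference between the layers was called on any member probe. In limma's test, with adjustment over all probes of a design, 0 of 10 member probes passed an adjusted p of 0.05 on slides 1 to 6, where 2.84% of all probes did. On slides 7 to 12 the count was 0 of 5, against 1.43% of all probes, and on slides 13 to 18 it was 0 of 2, against 1.57%. At these rates a count of 0 among so few probes is near the background. The adjusted p of the 17 probes lay between 0.401 and 0.988. Before adjustment none reached p under 0.05 either (lowest limma p = 0.0696), whereas 14.8%, 13.8% and 12.9% of all probes on the 3 designs did. None of the 17 probes had all 6 slides on the same side of 0, which 8.40% of all probes did. With so few probes, which share slides, these counts of 0 do not set the members apart from all probes. In RNA amplified from a captured layer, fewer dividing cells and less transcript per cell cannot be told apart.

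**Figure D1:**
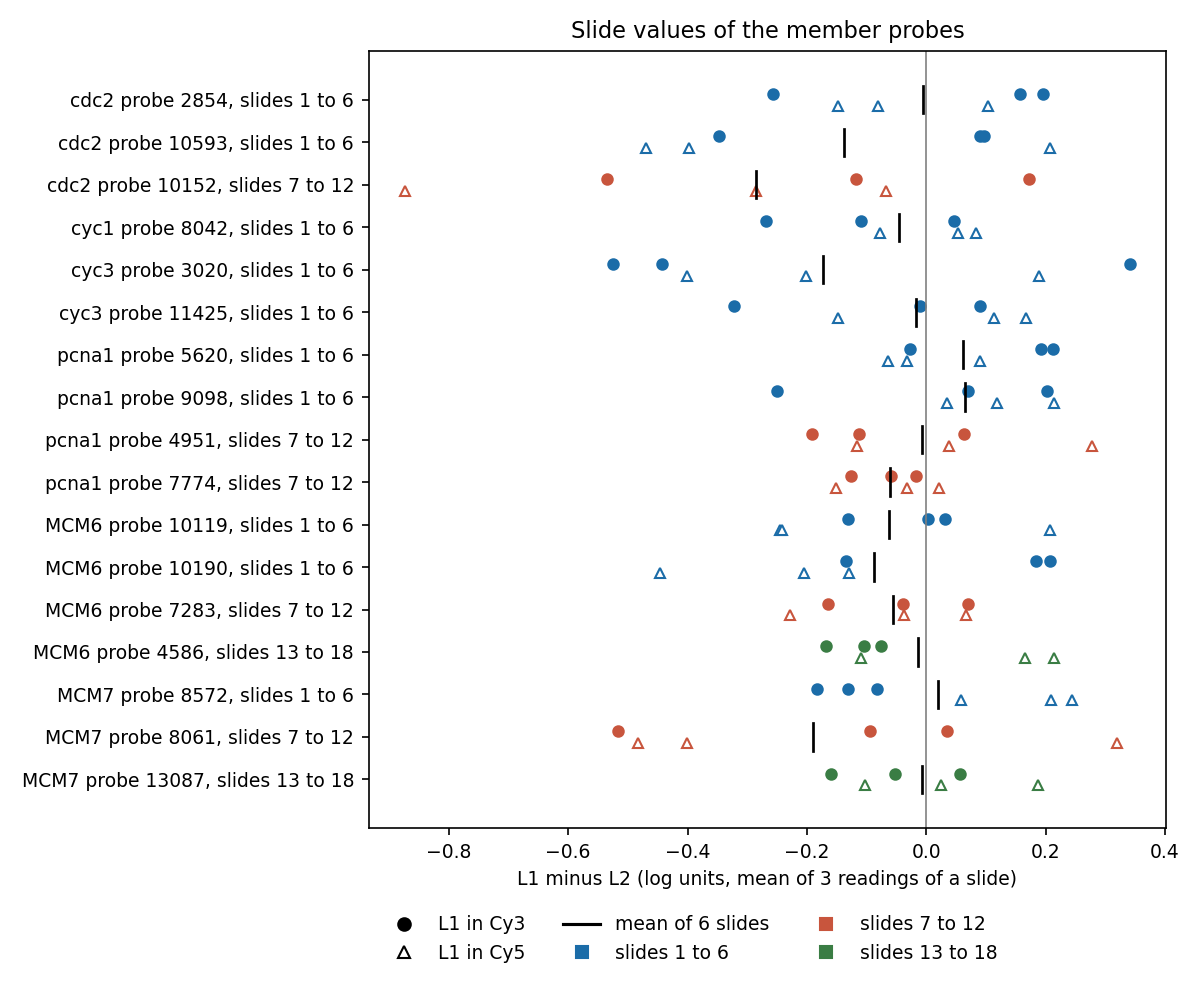
Each row is 1 member probe, each point the L1 minus L2 value of 1 slide in log units (filled circles, L1 in Cy3, open triangles, L1 in Cy5), coloured by array design, and the bar is the mean of the 6 slides. Every probe has slides on both sides of 0, and cdc2 probe 10152 reaches lowest, at -0.87.

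The kinase cdc2, the cyclin-dependent kinase that carries cells into mitosis, was measured by 3 probes. Probe 10152 on slides 7 to 12 gave a lowest value of -0.87 (slide 8), a median of -0.20 and a highest of 0.17 (slide 9). On 5 of 6 slides it was below 0, and slides 8 and 11 stood lowest. Its mean difference was -0.28 ± 0.13 log units (limma SE, n = 6 slides, adjusted p = 0.401), the largest of any member, with a 95% interval of -0.60 to 0.030. Probe 10593 on slides 1 to 6 ranged over -0.47 (slide 2), a median of -0.13 and 0.21 (slide 6). Its slides divided into 2 sets of 3, with slides 2, 4 and 5 at -0.35 or lower and the other 3 above 0. The difference was -0.14 ± 0.11 (limma adjusted p = 0.603), with an interval of -0.37 to 0.099. Probe 2854 on the same slides had -0.26, 0.012 and 0.20 as its lowest, median and highest values. It lay evenly about 0, with 3 slides on each side and a difference of -0.0047 ± 0.085 (limma adjusted p = 0.988). Over the same 6 slides the 2 cdc2 probes correlated weakly (r = 0.15).

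Slides 2 and 8, on which probes 10593 and 10152 had their lowest values, both carry L1 extract number 2. They also share L2 extract number 2 and have L1 in Cy5, so these cannot be told apart here. On slide 2, probe 2854 read -0.15, which was not its lowest. With slide 8 left out, probe 10152 stood at -0.17, still uncalled.

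The cyclins, the partners that activate these kinases, were measured on slides 1 to 6 only. The gene cyc1, whose RefSeq synonyms include an A-type cyclin name, had a lowest value of -0.27 (slide 1), a median of -0.016 and a highest of 0.084 (slide 4). Its slides divided evenly about 0. The difference was -0.045 ± 0.075 (limma adjusted p = 0.842), with a 95% interval of -0.21 to 0.12. For cyc3, probe 3020 had a lowest value of -0.53 (slide 3), a median of -0.30 and a highest of 0.34 (slide 1). It was below 0 on 4 slides, and slides 1 and 6 stood apart above it. Its difference was -0.17 ± 0.12 (limma adjusted p = 0.561), with an interval of -0.45 to 0.0997. Probe 11425 of the same gene had -0.32 (slide 1), 0.040 and 0.17 (slide 6) as its lowest, median and highest values, and a difference of -0.018 ± 0.084 (limma adjusted p = 0.956). Slide 1 thus gave the highest value on one cyc3 probe and the lowest on the other, and across slides the pair ran in opposite directions (r = -0.47, n = 6).

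The sliding clamp gene pcna1 had 4 probes on 2 designs, all with means within 0.065 log units of 0. On slides 1 to 6, probe 5620 had a lowest value of -0.064, a median of 0.031 and a highest of 0.21, and probe 9098 had -0.25, 0.094 and 0.21. The first divided evenly about 0 and the second was above 0 on every slide but slide 5. Their differences were 0.062 ± 0.073 and 0.065 ± 0.081 (limma adjusted p = 0.762 and 0.776), with intervals of -0.10 to 0.22 and -0.12 to 0.25. On slides 7 to 12, probe 4951 had -0.19, -0.038 and 0.28 as its lowest, median and highest values, and probe 7774 had -0.15, -0.045 and 0.021. Probe 7774 had the narrowest spread of all member probes, with 5 of 6 slides below 0 and an SD of 0.066. Their differences were -0.0070 ± 0.079 and -0.061 ± 0.063 (limma adjusted p = 0.977 and 0.706), with intervals of -0.19 to 0.18 and -0.21 to 0.089. The probes of slides 1 to 6 lay above 0 and those of slides 7 to 12 below it, each by less than its standard error. A cDNA probe can also hybridise with transcripts of a near-identical copy. The other PCNA gene, pcna2, gave 9 probes between -0.079 and 0.049, none of them called.

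The helicase subunits MCM6 and MCM7 were the members with values on all 3 designs. For MCM6 on slides 1 to 6, probe 10119 had a lowest value of -0.25, a median of -0.064 and a highest of 0.21, and probe 10190 had -0.45, -0.13 and 0.21. Probe 10190 was below 0 on all 3 slides with L1 in Cy5 and above 0 on 2 of 3 with L1 in Cy3. Their differences were -0.063 ± 0.084 and -0.088 ± 0.082 (limma adjusted p = 0.792 and 0.680). On slides 7 to 12, probe 7283 had -0.23, -0.038 and 0.069, for a difference of -0.056 ± 0.072 (limma adjusted p = 0.774). On slides 13 to 18, probe 4586 had -0.17, -0.090 and 0.21, for a difference of -0.013 ± 0.059 (limma adjusted p = 0.951). All 4 MCM6 probes thus had means below 0 and slides on both sides of it.

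MCM7 gave 1 probe per design. Probe 8061 on slides 7 to 12 was the widest, with a lowest value of -0.52 (slide 7), a median of -0.25 and a highest of 0.32 (slide 12). Slides 7, 8 and 10 were low, at -0.40 or below, and slide 12 stood above the rest. The difference was -0.19 ± 0.13 (limma adjusted p = 0.563), with an interval of -0.50 to 0.11. Probe 8572 on slides 1 to 6 had -0.18, -0.013 and 0.24 as its lowest, median and highest values. Its 3 slides with L1 in Cy3 were all below 0 and its 3 slides with L1 in Cy5 all above it, with means of -0.13 and 0.17, and the difference between layers was 0.019 ± 0.070 (limma adjusted p = 0.942). The dye term was not called on this probe (limma adjusted p = 0.212) or on any other member probe. Over all probes of the first design, 415 of 14401 had a called dye term. The second design had 1 such probe and the third 0. A count of 0 among so few member probes does not set them apart. Probe 13087 on slides 13 to 18 had -0.16, -0.014 and 0.19, and a difference of -0.0077 ± 0.059 (limma adjusted p = 0.973).

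**Figure D2:**
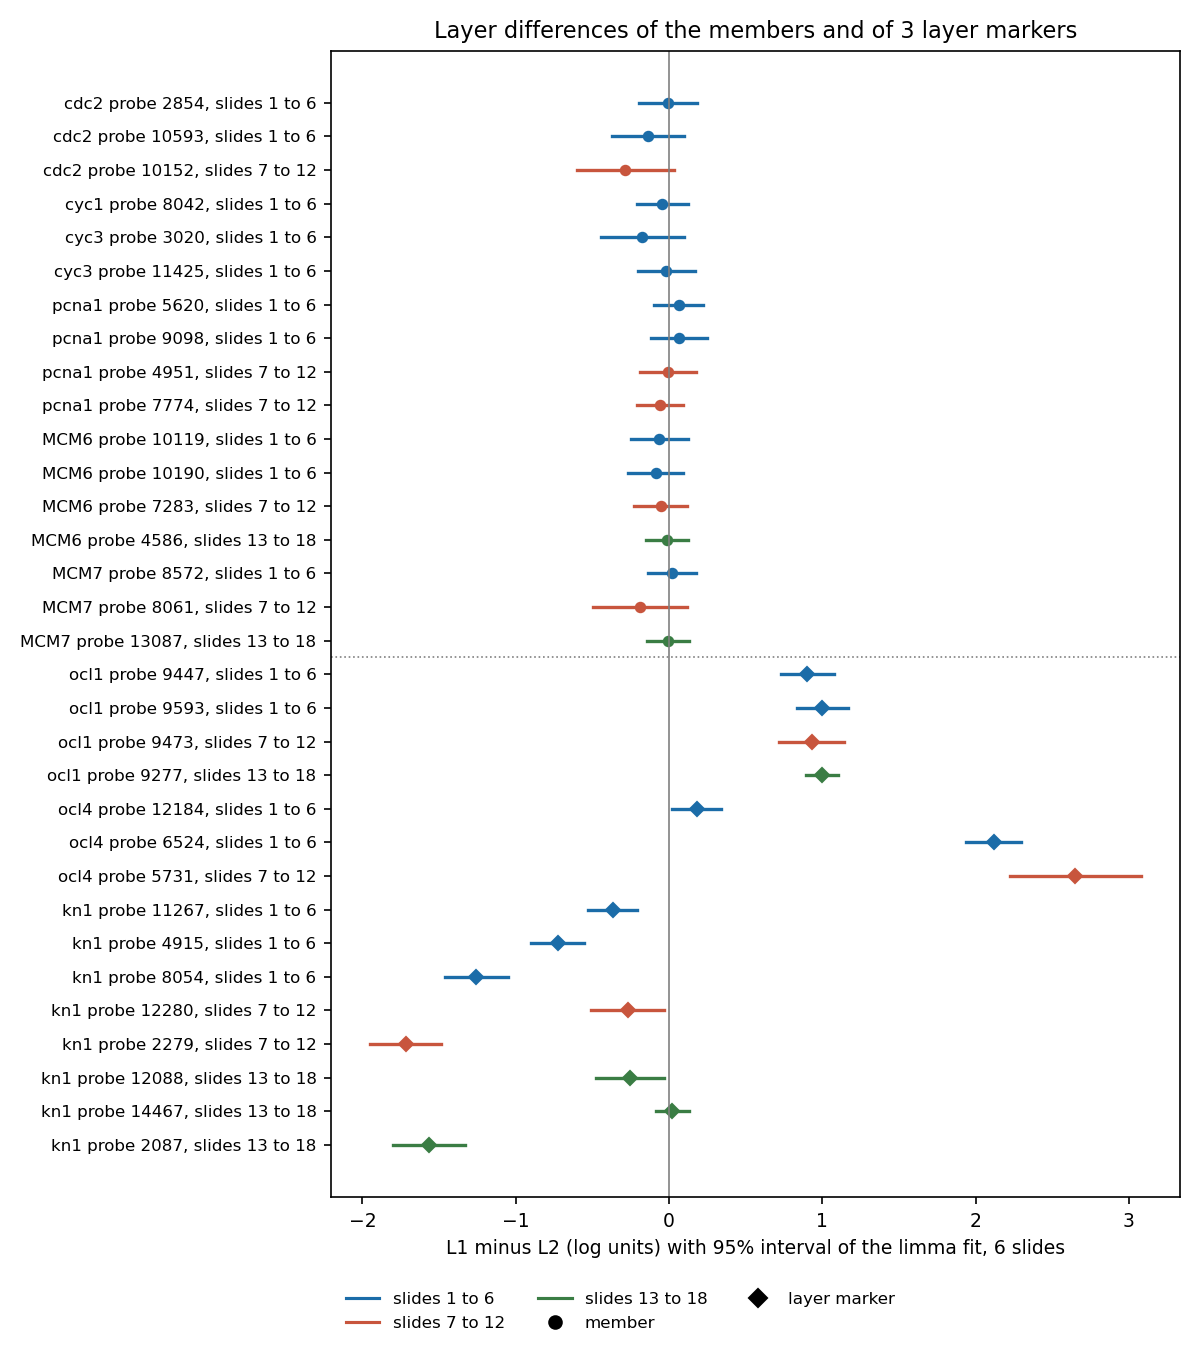
Points are L1 minus L2 differences in log units and bars their 95% intervals from the limma fit over 6 slides, for the 17 member probes (circles, top) and the probes of ocl1, ocl4 and kn1 (diamonds, bottom). All 17 member intervals hold 0 and stay within 0.60 of it, while ocl1 lies between 0.90 and 1.00.

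A call that is missed does not show equality, so the intervals were used to state which sizes of difference each probe leaves possible. The bound farther from 0 was 0.15 for the tightest probe, MCM7 13087, had a median of 0.22 over the 17 probes and was 0.60 for the widest, cdc2 10152. Read as folds, these bounds are 1.11-fold, 1.17-fold and 1.51-fold in base 2, or 1.16-fold, 1.25-fold and 1.82-fold with natural logarithms. They limit the log ratio of a probe, not the transcript itself. On slides 13 to 18, kn1 probe 14467 had an interval of -0.086 to 0.13, while kn1 probe 2087 was at -1.56. Differences of 0.25 log units or more lay outside the interval of 12 of 17 member probes, and 39.2% of all probes had intervals within that limit. For 0.5 log units the count was 16 of 17, against 89.4% of all probes, and for 1 log unit it was 17 of 17, against 98.5%. The probe that left 0.5 log units possible was cdc2 10152, and only in the direction of less transcript in L1.

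The median standard error of the member probes was somewhat below that of all probes on each design, but nearly equal over all designs (0.081 against 0.082). The median was 0.083 for the members against 0.086 for all probes on slides 1 to 6, 0.079 against 0.091 on slides 7 to 12, and 0.059 against 0.067 on slides 13 to 18. Over all designs their median difference in size, regardless of sign, was 0.061, against 0.081. The smallest difference called on any probe was 0.31, 0.39 and 0.27 on the 3 designs in slide order. For 13 of 17 member probes the whole interval lay closer to 0 than the smallest called difference of its design. The other 4 were cdc2 10593, cdc2 10152, cyc3 3020 and MCM7 8061. The share of all probes under these limits was not computed. At a fixed limit of 0.3 log units the member count was again 13 of 17, against 57.7% of all probes. These intervals are for a probe's log ratio, are not adjusted for the number of probes and reflect the variation among 6 slides. Slides 1 and 2 have an L2 extract number in common, as have 5 and 6, yet each slide counted once. Across the alternatives tried, the farther bound of a member probe reached at most 0.83 (cdc2 10152).

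In sign, 14 of the 17 member probes lay below 0, against 51.3% of all probes, and the members' median was -0.045 log units, against -0.0040 over all probes. The 3 above 0 were pcna1 5620, pcna1 9098 and MCM7 8572. The 17 probes come from 6 genes and share slides and extracts, so they are not 17 independent readings of a direction.

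The labels number the L1 extracts, and numbers 1 to 5 recur on all 3 designs. The 4 genes with values on more than 1 design were therefore also compared by extract, averaging the slides that share an L1 number. Only L1 number 5 was labelled with both dyes, so a dye effect stays in the values of the other extracts. For cdc2 the 7 extracts ranged over -0.59 (number 2), a median of -0.072 and 0.16 (number 6). Extracts 2 and 7 were low, and 3 of 7 were above 0. The mean was -0.18 ± 0.29 (SD, n = 7 extracts, exact two-sided sign-flip test, p = 0.188), with an interval of -0.53 to 0.079. For pcna1 they ranged over -0.11, a median of 0.015 and 0.15, with a mean of 0.016 ± 0.083 (SD, n = 7, exact p = 0.609) and an interval of -0.055 to 0.0996. This was the narrowest interval by extract, and its upper end is 1.07-fold in base 2 or 1.10-fold with natural logarithms.

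MCM6 was below 0 in 7 of 8 extracts, with a lowest value of -0.34 (number 6), a median of -0.045 and a highest of 0.019 (number 4). Its mean was -0.088 ± 0.12 (SD, n = 8, exact sign-flip p = 0.0391, interval -0.19 to -0.0054), without adjustment for the 4 genes compared in this way. The test takes the L1 extracts as independent, although numbers 1 and 2, and 5 and 6, met the same L2 extract on slides 1 to 6. With each such pair averaged into 1 unit, an alternative added after seeing the data, the mean was -0.080 with 5 of 6 units below 0 and the exact p was 0.0938 (the smallest that 6 units allow is 0.0312). The 3 lowest values were those of extracts 6, 7 and 8, each read on 1 slide, while extracts 1 to 5, read on 3 slides each, lay between -0.056 and 0.019. Over extracts 1 to 5 alone the mean was -0.016 (exact p = 0.312, where 0.0625 is the smallest p that 5 extracts allow). The exact p was 0.0781 when extract 1, 5, 6, 7 or 8 was left out. MCM7, another subunit of the same helicase, had a lowest value of -0.25 (number 1), a median of -0.061 and a highest of 0.081 (number 5), with 6 of 8 extracts below 0. Its mean was -0.056 ± 0.10 (SD, n = 8, exact p = 0.156), with an interval of -0.15 to 0.028.

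**Figure D3:**
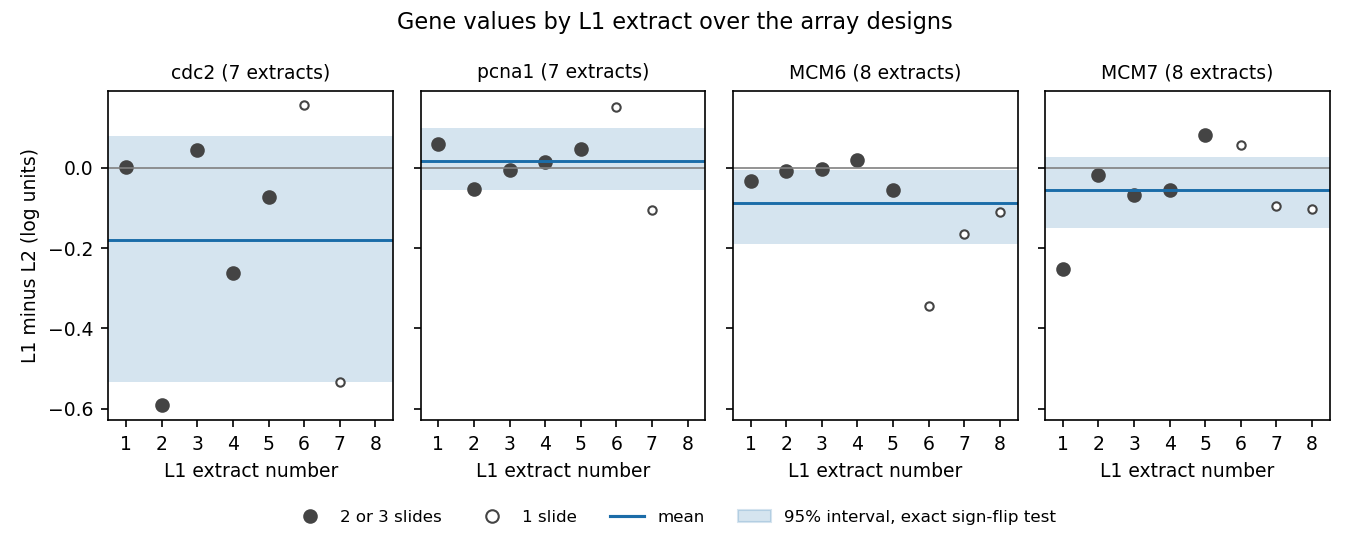
Each point is the L1 minus L2 value of a gene in log units for 1 L1 extract number, averaged over probes and slides (filled, 2 or 3 slides, open, 1 slide), with the mean (line) and the 95% interval of the exact sign-flip test (band). The MCM6 values of extracts 1 to 5 lie between -0.056 and 0.019, and those of extracts 6 to 8 lie lower.

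On slides 1 to 6 the 45 pairs of member probes had Pearson r between -0.72 (pcna1 9098 with MCM6 10190) and 0.94 (cyc1 8042 with cyc3 11425), with a mean of -0.067, against 0.00084 over all probe pairs of that design. The probes of the high pair, which belong to different cyclin genes, were both lowest on slide 1 and both above 0 on slides 3, 4 and 6. On slides 7 to 12 the mean over 10 pairs was 0.37, against 0.012 over all pairs, and 9 of 10 pairs were above 0. The single pair on slides 13 to 18, MCM6 with MCM7, had r = 0.58. Between probes of the same gene, r was 0.15 for cdc2, -0.47 for cyc3, -0.20 and 0.16 for pcna1 on its 2 designs and 0.35 for MCM6, with a mean of -0.043 over the 4 such pairs on slides 1 to 6. Each r rests on 6 slides, which share extracts and dye orientation, and is given as a description.

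The genes whose slide pattern was most like each member's were ranked by Pearson r over 6 slides, among 548, 422 and 579 named genes on the 3 designs. Each gene was taken as the mean of its probes, and dye effects were not removed. On slides 1 to 6, r was above 0.9 for 23 genes with MCM7, 12 with cdc2 and 0 with cyc1. The names are given as a description only. For pcna1 on slides 1 to 6 the nearest were CesA-3 (r = 0.98), its own copy pcna2 (0.95) and cys2 (0.95), and on slides 7 to 12 ChlI (0.95), zpu1 (0.93) and arpp2b (0.90). For cdc2 they were copz1 (0.96), PRO4 (0.95) and tua4 (0.95), and on slides 7 to 12 LOC542102, the origin recognition gene orc1 and MMT1 (0.97 each). For cyc1 they were MYB-IF35 (0.87), pdh2 (0.84) and hdr10 (0.82), and for cyc3 fmi1(pki) (0.95), pdi12 (0.94) and CNX (0.93).

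For MCM6 the nearest were b-70 (0.96), hp2 (0.96) and et1 (0.95) on slides 1 to 6. They were LOC778431 (0.93), vacs1 (0.92) and phb3 (0.92) on slides 7 to 12, and brd103 (0.97), isp1 (0.96) and LOC542607 (0.96) on slides 13 to 18. For MCM7 they were LOC542607 (0.99), RA (0.98) and LOC542182 (0.98) on slides 1 to 6. They were CesA-2 (0.90), TOR (0.86) and Hds1 (0.83) on slides 7 to 12, and yab14 (0.93), MPK4 (0.93) and pdi3 (0.92) on slides 13 to 18. By these gene means, no gene other than LOC542607 came up more than once, and no member was among the 3 nearest of another member. The cyc3 mean combines 2 probes that ran in opposite directions (r = -0.47). Its probe 11425 alone had r = 0.94 with cyc1 8042.

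Beyond the 6 members, 26 other cell division and replication genes with values were listed in 4 groups (histones, DNA replication, cell cycle regulators, and mitosis and cytokinesis), and 1 of their 96 probes was called. This was probe 8996 of the histone gene his1 on slides 1 to 6. Over the 3 designs together 2.02% of all probes were called, so 1 of 96 and the counts of 0 in the groups below are near the background. The 6 slides of the his1 probe had a lowest value of 0.41 and a highest of 1.02, all above 0, and its difference was 0.69 ± 0.096 (limma adjusted p = 0.00315). The other 4 his1 probes lay between -0.067 and 0.21 and were not called, and the mean over the 5 probes was 0.18 (limma adjusted p = 0.259). When slides 1 and 5, on which the layers carry unequal extract numbers, were left out, probe 8996 was at 0.73 with an adjusted p of 0.0735.

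Histones package newly copied DNA, and many are made chiefly while DNA is copied. On slides 1 to 6, 25 of 29 histone probes were above 0 with a median of 0.10, against -0.0017 over all probes, and 18 of the 29 were probes of a single gene, his2b5. Gene means there were 0.14 for hon101, 0.092 for his2b5 and 0.060 for his1a. On the other designs the 4 histone probes lay between -0.043 and 0.025.

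Of the DNA replication genes, 0 of 8 probes were called, and 7 of 8 lay below 0, as did 51.3% of all probes, with a median of -0.091. The origin recognition genes, whose proteins mark where replication begins, had gene means of -0.17 for orc4 and -0.17 for orc1 on slides 7 to 12. On the third design, orc1 was at -0.044 and orc3 at 0.020. FEN-1, an endonuclease that trims the fragments of the lagging strand, had gene means of -0.011 (slides 1 to 6) and -0.11 (slides 13 to 18).

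Among cell cycle regulators, 0 of 28 probes were called, with a median of -0.025 over the probes. The values of named genes below are gene means. On slides 1 to 6 the lowest was wee1, a kinase that holds back cyclin-dependent kinases, at -0.22, followed by the spindle checkpoint gene mad2 at -0.071, and rbr3, a retinoblastoma-related gene, was at 0.0092. On slides 7 to 12, DP2 and DP1, the partners of E2F transcription factors, lay at opposite extremes, at -0.18 and 0.25, with mad2 at -0.078 and rbr3 at 0.12. On slides 13 to 18 the D-type cyclin cycD2 was at -0.19 and the retinoblastoma-related RBR1 at -0.15, against 0.11 for rbr3 and 0.12 for mad2. The sign of mad2 thus differed among designs. RBR1 had the other sign on the second design (0.097), and DP1 had it on the third (-0.064). DP2 was smaller in size on the third design (-0.070). The wee1 value shrank to -0.018 on the second design and -0.0081 on the third.

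Among genes of mitosis and cytokinesis, 0 of 27 probes were called, with a median of -0.046 over the probes. Where a gene had several probes on a design, its value below is the gene mean. The kinesins, motors that move along microtubules, came nearest to a call, with kin15 at -0.23 on slides 13 to 18 (limma adjusted p = 0.0991) and KIN13 at -0.30 on slides 1 to 6 (limma adjusted p = 0.111). On slides 1 to 6 kin4 was at -0.18, KIN9 at 0.0997 and the centromere gene CenpcA at 0.011. KIN6, KIN1 and KIN8 were at -0.17, -0.12 and 0.017 on slides 7 to 12. On slides 13 to 18 KIN1 was at -0.17, KIN9 at 0.072 and KIN6 at 0.15, so KIN6 had opposite signs on different designs, neither of them called. KIN8 changed sign too, with -0.11 on the first design and -0.066 on the third. KIN13 (-0.046) and kin4 (-0.019) were smaller in size on the third design than on the first.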

How the data were processed

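Members and gene lists were chosen with earlier results of these data known. The authors deposited log ratios of the 2 channels of each slide, with 3 readings per slide (lettered L, M and H without explanation) and 54 columns in all. Normalisation, log base and numerator dye: not given in the sources used here. Every column of values was used.

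Readings were averaged per slide and turned by dye orientation. For each array design, the layer difference and a dye effect of each probe were estimated with limma 3.58.1 (R 4.3.3, n = 6 slides). Benjamini-Hochberg adjustment of the two-sided p-values covered every probe with values, calls were made at 0.05, and 95% intervals came from the moderated fit. The fit was tested on simulated data. Genes on several designs were compared over L1 extract numbers by an exact sign-flip test, taking equal numbers as the same extract. Per the labels, the slides of a design are biological replicates. For arrays, their number limits the precision.

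Names came from the array annotation, updated by gene number through RefSeq (Zm-B73-REFERENCE-NAM-5.0, names only). Lists were matched by names and synonyms, and pcna2 was added after the annotation was seen. Named were all member probes, every called probe of the lists, the 2 highest and 2 lowest genes per list and design, and the 3 genes most like each member. Alternatives were slides left out, single readings or their median, 18 columns with the slide as a block, no dye term, centring, scaling, robust moderation, gene means and the L2 extract number as a block. Figures used Python 3.11.15 and matplotlib 3.10.9.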

Additional observations from a re-analysis of the deposited data

How the results depend on the processing

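No member probe was called under any of the 275 alternatives run on the 17 probes (lowest limma adjusted p = 0.222), and 8 probes kept their direction in all of theirs. The 25 alternatives with the other sign moved values that lay near 0. With 1 reading in place of 3, these were cdc2 2854 at 0.17 and MCM6 10119 at 0.0027 (M), and pcna1 4951 at 0.14, MCM6 4586 at 0.029 and MCM7 13087 at 0.024 (L). Centring each slide gave 0.0017 for cdc2 2854 and 0.012 for pcna1 4951, scaling gave 0.00057 for pcna1 4951, and the L2 extract number as a block gave 0.0075 for cdc2 2854. Without slides 1 and 5, cyc1 8042 was at 0.033, cyc3 11425 at 0.067, pcna1 5620 at -0.015 and MCM7 8572 at -0.0068. Leaving out 1 slide at a time gave -0.046 to 0.068 for cdc2 2854, -0.061 to 0.042 for cyc3 11425, -0.060 to 0.039 for pcna1 4951, -0.044 to 0.037 for MCM6 4586 and -0.045 to 0.027 for MCM7 13087. An unadjusted limma p under 0.05 appeared for cyc3 3020 without slide 1 (0.0149) and without slides 1 and 5 (0.0484), cdc2 10593 without slide 6 (0.0258), cdc2 10152 without slide 9 (0.0395) or 12 (0.0399), and MCM7 8061 without slide 12 (0.0240). The farther interval bound rose most, relative to its value, for cdc2 2854 (0.19, at most 0.64) and pcna1 4951 (0.19, at most 0.44), and stayed under 1 log unit for all 17 probes. By extract, leaving out 1 at a time gave -0.0067 to 0.036 for pcna1 and -0.10 to -0.051 for MCM6. With the dye term removed first, the means were -0.18 for cdc2, 0.019 for pcna1, -0.089 for MCM6 and -0.072 for MCM7. Their exact sign-flip p was 0.172, 0.531, 0.0391 and 0.0859, unadjusted. The unadjusted exact sign-flip p of MCM6 rose above 0.05 without extract 1, 5, 6, 7 or 8 (0.0781 each). Over extracts 1 to 5 the MCM6 mean was -0.016, and 5 extracts allow no p under 0.05. The p of MCM6 was also above 0.05 with L1 extracts that share an L2 extract averaged (mean -0.080, an alternative added after seeing the data). That averaging left the other 3 genes with an exact p above 0.05 too, with a pcna1 mean of 0.0017.

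Counts over all probes moved more. On slides 1 to 6, 409 probes were called, 258 without the dye term, 261 with the L reading, 78 without slides 1 and 5, and 211 to 417 with 1 slide left out. On slides 7 to 12, 129 were called, 82 with the L and 76 with the H reading, 77 after scaling, and 38 to 65 with 1 slide left out. On slides 13 to 18, 224 were called, 79 with the L reading and 88 to 231 with 1 slide left out. Entering all 18 columns with the slide as a random block called 993, 649 and 984. The causes were not tested. The his1 probe was called in 16 of 17 alternatives (limma adjusted p from 0.00101 to 0.0735). Each value is a within-slide difference, so the layers were compared in pairs throughout. With ratios alone, the signal over background that limits each probe is not known.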
